A study of Mus musculus with 24 samples.

Results

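The genes described here were the 9 histone deacetylases of the zinc-dependent family that were not deleted in the study, Hdac3 to Hdac11. They were chosen by name, and all 9 were found among the 25755 genes listed. RNA of dermal papilla (DP) cells, the mesenchymal cluster at the base of the hair follicle, was sequenced from double mutant (dM1/2) and control mice at postnatal days 20, 24, 28 and 60 (P20, P24, P28 and P60), with 3 libraries in each of the 8 groups. In dM1/2 mice both alleles of Hdac1 and of Hdac2 were floxed and were removed by Cre driven from the Corin gene, which is switched on in the DP after birth. Control mice also carried the Cre with floxed Hdac1 or Hdac2 alleles in one of several incomplete combinations, and the labels do not say which control had which. At P20 follicles were at the end of the first cycle in telogen, the resting phase, and the mice were female. At P24 and P28 follicles were in early and mid-anagen of the second cycle, the growth phase, and the mice were male. At P60 follicles were in the second telogen, and mice of either sex could be used. DP cells were labelled with YFP and sorted, so a residue of other cells could remain.

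Histone deacetylases remove acetyl groups from lysines of histones and of other proteins, and removal from histones generally goes with tighter, less transcribed chromatin. The zinc-dependent enzymes fall into classes. Class I holds Hdac1, Hdac2, Hdac3 and Hdac8. Class IIa holds Hdac4, Hdac5, Hdac7 and Hdac9, which have little catalytic activity of their own and repress genes through partners such as MEF2 factors and the Hdac3 complex. Class IIb holds Hdac6, a mostly cytoplasmic enzyme that deacetylates tubulin, and Hdac10, a deacetylase of polyamines. Hdac11 is the sole member of class IV. The question addressed was how the levels of the remaining enzymes stand when Hdac1 and Hdac2 are deleted, and how they stand from one cycle to the next.

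The deposited values are read counts divided by the size factor of each library and are called normalized reads below. Depth on genes ran from 11635062 to 13369732 reads per library at P20, from 35469841 to 49331751 at P24, from 37171260 to 48331795 at P28 and from 8171944 to 9724000 at P60, so depth, sex and hair-cycle stage changed together over the ages and cannot be told apart in a comparison of ages. Hdac9 was counted with 4 to 102 reads per library, and the other 8 members with at least 25. Differences were tested with limma on log2(normalized reads + 1), and called at a Benjamini-Hochberg adjusted p under 0.05 over all genes tested. Fold changes are on that scale.

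Of the targeted genes, Hdac1 was at 670.5 ± 3.7 normalized reads (SD, n = 3) in P24 controls and at 170.9 ± 48.7 in P24 dM1/2, a log2 fold change of -2.01 (SE 0.22, limma adjusted p = 0.00167). At the other ages Hdac1 did not pass the test, with log2 fold changes of -0.72 in the first telogen, -0.58 in mid-anagen and -0.25 in the second telogen. Hdac2 lay between 608.7 and 1281.7 normalized reads over the 24 libraries and was not called lower at any age, with log2 fold changes from -0.01 to 0.27. At P24 Hdac2 was higher in every dM1/2 library, at 1157.3, 1223.3 and 1281.7, than in every control, at 924.7, 1047.8 and 1068.6. At that age 23.8% of all genes tested had all dM1/2 libraries above all controls. Gene-level counts include reads from exons outside a floxed stretch, so they need not show a deletion.

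At P28 the control libraries stood apart from each other. Hdac1 was at 213.6, 529.0 and 104.7 normalized reads in P28 controls 1, 2 and 3 and at 190.2, 148.7 and 125.7 in the P28 dM1/2 libraries, so that the library labelled P28 control 3 was below every dM1/2 library. The same library had the highest summed level of 10 DP markers at that age, 428823.5 normalized reads against 274383.9 and 152908.8 in P28 controls 1 and 2, and control 2 had the highest summed level of 6 markers of other fibroblasts, 130595.2 against 85558.5 and 42362.2 in controls 1 and 3. The P28 results of the members that differed are given with and without P28 control 3, and lists of other genes were counted with all libraries.

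The 2 members that differed between genotypes at both anagen ages were Hdac6 and Hdac4, and the sequence before their start sites is shown. Both windows hold the same 2 short motifs, which are not particular to these members. The RefSeq promoter table (GRCm38.p6) has windows of 300 bases for 7 of the 9 members. The 250 bases before the start are printed from 5′ to 3′ on the strand of the gene, with capitals marking 2 motifs on either strand. The first, the CCAAT box, reads ATTGG on the opposite strand. The second, the GC box, was searched as GGGCGG, and on the opposite strand it reads CCGCCC. The gene Hdac6 (ENSMUSG00000031161) spans chrX:7930120-7947889 on the minus strand, and the stretch covers chrX:7947890-7948139. The gene Hdac4 (ENSMUSG00000026313) spans chr1:91928779-92195699 on the minus strand, and the stretch, from a start inside the annotated gene, covers chr1:92180342-92180591.
Hdac6: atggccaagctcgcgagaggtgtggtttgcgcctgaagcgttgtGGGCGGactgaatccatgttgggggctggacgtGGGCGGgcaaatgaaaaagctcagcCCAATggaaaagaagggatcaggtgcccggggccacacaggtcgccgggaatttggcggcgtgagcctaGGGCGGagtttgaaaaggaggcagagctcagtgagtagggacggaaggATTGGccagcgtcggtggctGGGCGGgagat
Hdac4: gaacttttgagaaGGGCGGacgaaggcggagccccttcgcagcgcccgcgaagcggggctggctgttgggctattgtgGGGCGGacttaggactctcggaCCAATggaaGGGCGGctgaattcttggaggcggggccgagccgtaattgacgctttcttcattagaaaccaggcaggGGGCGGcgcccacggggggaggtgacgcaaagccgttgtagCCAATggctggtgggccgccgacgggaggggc
Each of these stretches holds 2 CCAAT boxes and 4 GC boxes. In the Hdac6 window the CCAAT boxes begin 148 and 31 bases before the start site, and in the Hdac4 window they begin 150 and 32 bases before it. Over the full 300 bases, 37.4% of all 32851 windows in the table hold a CCAAT box, and 35.7% hold a GC box. Among the 11 windows of the members, 5 hold a CCAAT box and 5 a GC box. Both motifs also stand in the windows of Hdac5 and Hdac11, which were not called between genotypes at any age. In the Hdac11 window the CCAAT box begins 150 bases before the start site. The TATA box, TATAAA, was found in 2 of these 11 windows, against 13.6% of all windows. The E-box, CACGTG, was found in 1, against 7.15%. A match describes the letters only.

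Compared per exon length in P20 controls, Hdac7 had the highest level of the members, 258.9 ± 32.1 normalized reads per kb (SD, n = 3), followed by Hdac5 at 224.5 ± 49.5 and Hdac3 at 215.5 ± 10.1. These 3 levels overlapped between neighbours. Hdac4 followed at 101.4, Hdac11 at 80.5, Hdac10 at 50.4, Hdac6 at 47.6, Hdac8 at 17.3 and Hdac9 at 3.59 normalized reads per kb. Hdac4 overlapped with Hdac11, and Hdac10 with Hdac6, whereas Hdac8 and Hdac9 lay below all others without overlap. The exon length joined all annotated exons of a gene. Which transcripts were expressed was not measured, so the order between genes depends on this choice of length. In P60 controls the order was Hdac7 at 393.2, Hdac5 at 269.6, Hdac3 at 170.4, Hdac4 at 133.9, Hdac10 at 89.8, Hdac11 at 72.9, Hdac6 at 47.7, Hdac8 at 24.3 and Hdac9 at 4.07 normalized reads per kb, and only Hdac10 and Hdac11 overlapped among neighbours.

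In anagen the order of the levels differed. Hdac4 came first in P24 controls at 324.1 ± 83.0 normalized reads per kb, above Hdac3 at 210.0 without overlap, and Hdac6 stood at 91.3 ± 34.7. In P24 dM1/2 Hdac3 came first at 216.3, Hdac6 followed at 186.7 ± 18.4, and Hdac4 stood at 147.3 ± 19.3. In P28 controls Hdac4, at 226.2 ± 100.5, overlapped with Hdac7 at 199.4, and Hdac6 stood at 56.6. In P28 dM1/2 Hdac3 came first at 224.2, Hdac6 followed at 165.1 and overlapped with Hdac7 at 157.0, and Hdac4 stood at 103.6 normalized reads per kb.

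**Figure D1:**
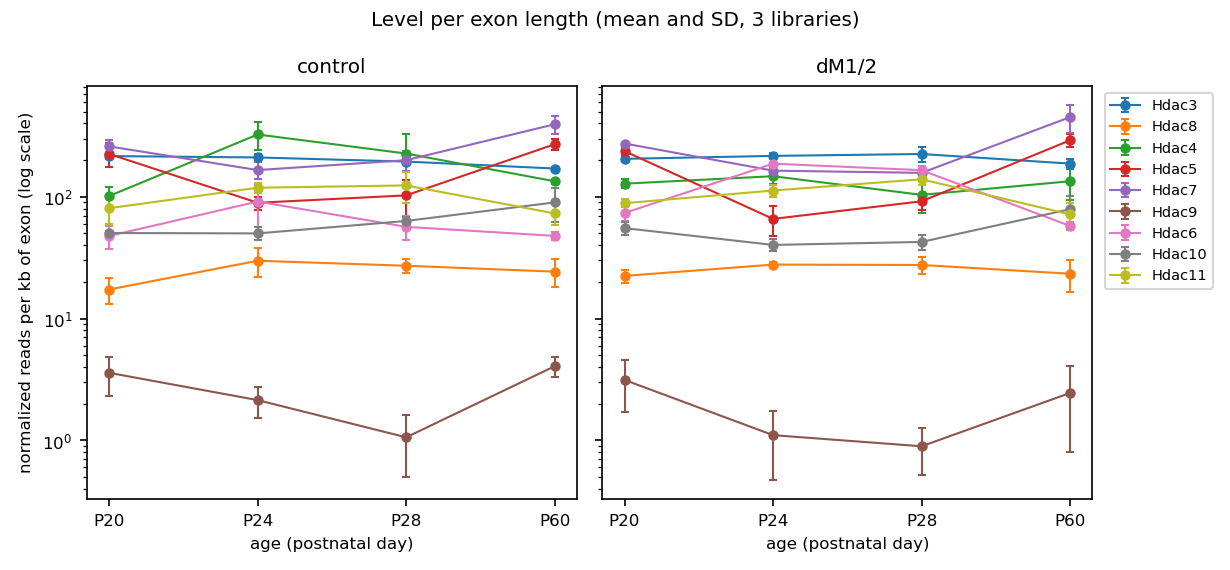
Level of each member in normalized reads per kb of exon (log axis) at the 4 ages, with controls on the left and dM1/2 on the right; points are means of 3 libraries and bars are SD. Hdac9 lies lowest at every age, Hdac4 peaks in P24 controls at 324.1, and Hdac6 is at 186.7 in P24 dM1/2 against 91.3 in P24 controls.

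Hdac6 was higher in dM1/2 at both anagen ages. At P24 it was at 404.7, 424.7 and 763.8 normalized reads in controls and at 1124.2, 965.4 and 1168.8 in dM1/2. Every dM1/2 library lay above every control library, although control 3 was well above the other controls. The log2 fold change was 1.09 (SE 0.24, 95% interval 0.52 to 1.66, limma adjusted p = 0.0160), a fold of 2.13. Without P24 control 2, P24 dM1/2 1 or P24 dM1/2 3 the adjusted p was 0.0586, 0.0542 or 0.0620, so that the call at P24 rested on these libraries.

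At P28 Hdac6 was at 314.9, 265.8 and 406.9 normalized reads in controls and at 1045.6, 884.0 and 952.3 in dM1/2. The groups were far apart, with the lowest dM1/2 library above the highest control. The log2 fold change was 1.56 (SE 0.18, 95% interval 1.14 to 1.98, limma adjusted p = 0.00115), a fold of 2.95. Without P28 control 3 it was 1.72 (limma adjusted p = 0.0002), and it was called in each of 6 fits without a library and in each of 11 other settings.

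In telogen Hdac6 lay in the same direction but was not called. At P20 it was at 233.0, 254.3 and 344.2 normalized reads in controls and at 427.5, 367.4 and 488.3 in dM1/2, a log2 fold change of 0.63 (SE 0.19, 95% interval 0.22 to 1.05, limma adjusted p = 0.116). At P60 it was at 260.3, 302.7 and 269.8 in controls and at 313.0, 362.1 and 329.5 in dM1/2, a log2 fold change of 0.27 (95% interval -0.12 to 0.66, limma adjusted p = 0.986). Hdac6 was thus higher in every dM1/2 library than in every control library at each of the 4 ages. In order of age, 12.1%, 23.8%, 28% and 4.79% of all genes tested had all dM1/2 libraries above all controls. The exact two-sided permutation p was 0.1 at each age, the smallest that 3 libraries against 3 can give.

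**Figure D2:**
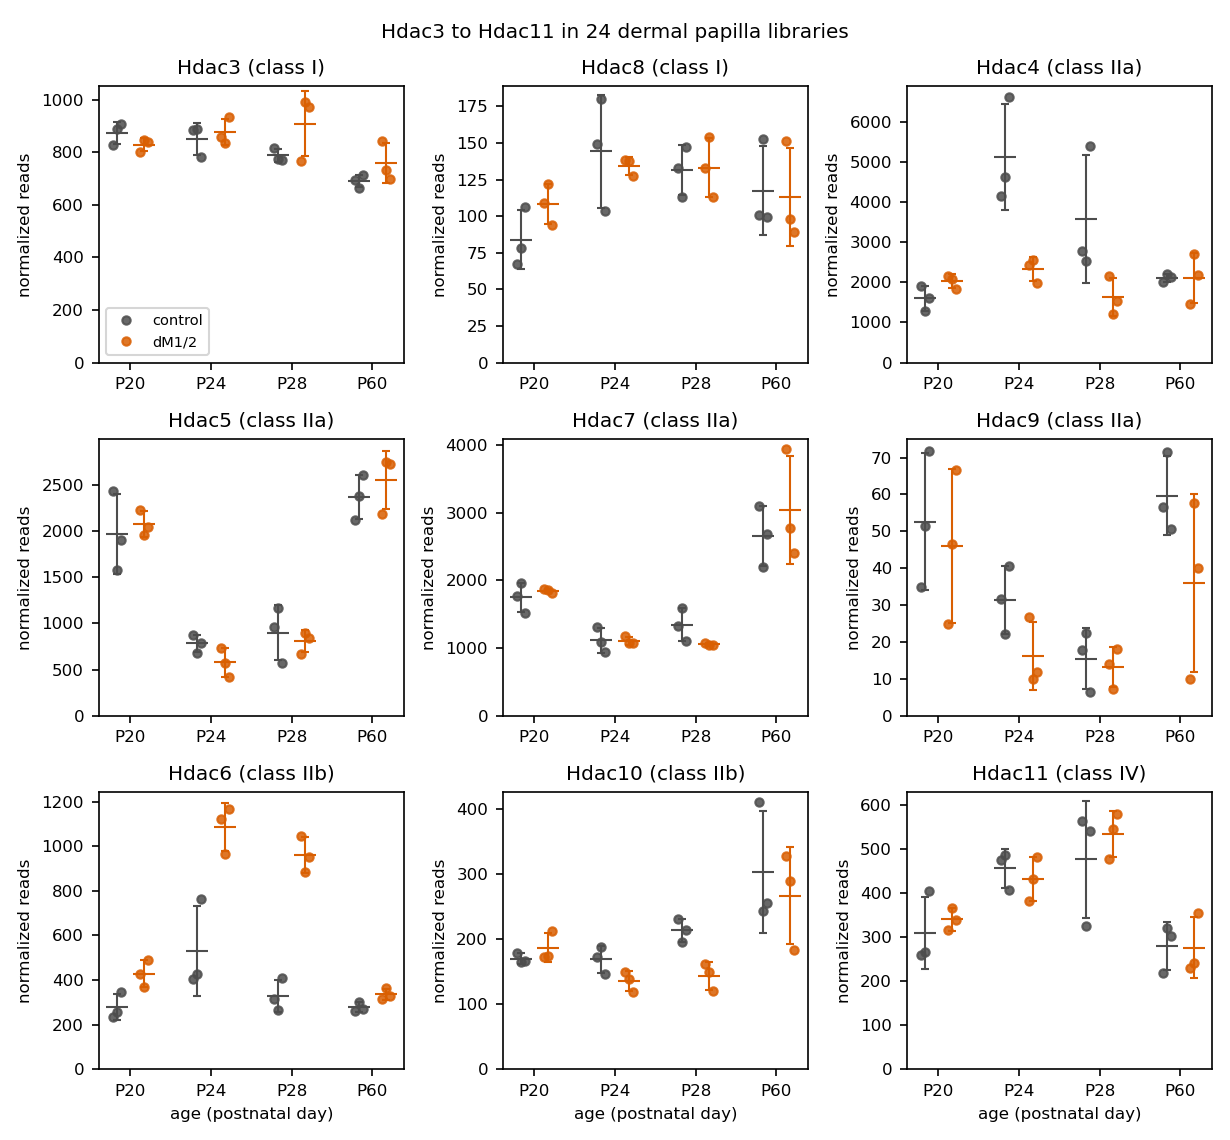
Normalized reads of each member in the 24 libraries by age, controls in grey and dM1/2 in orange; points are libraries, and bars are mean and SD of 3. The dM1/2 libraries of Hdac6 lie above all controls at each age, and those of Hdac4 lie below all controls at P24 and P28.

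Hdac4, a class IIa enzyme known for repressing MEF2-driven genes, was lower in dM1/2 at both anagen ages. At P24 it was at 4141.0, 4619.5 and 6616.2 normalized reads in controls and at 2438.8, 2565.7 and 1985.1 in dM1/2. The groups did not overlap, where 21% of all genes tested had all dM1/2 libraries below all controls. The log2 fold change was -1.12 (SE 0.20, 95% interval -1.58 to -0.66, limma adjusted p = 0.00685), and it was called in each of 6 fits without a library and in each of 11 other settings.

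At P28 Hdac4 was at 2788.2, 2534.9 and 5405.6 normalized reads in controls and at 2159.0, 1221.7 and 1534.0 in dM1/2. P28 control 3 was far above the other controls, and the groups did not overlap with or without it, where 23.3% of all genes tested had all dM1/2 libraries below all controls. The log2 fold change was -1.08 (SE 0.33, limma adjusted p = 0.0433), and without P28 control 3 it was -0.74 (limma adjusted p = 0.0353). The call was lost without P28 control 1, P28 dM1/2 2 or P28 dM1/2 3, at adjusted p = 0.0721, 0.149 and 0.118, and with TMM scaling, at adjusted p = 0.0521 by limma and 0.0504 by edgeR.

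In telogen Hdac4 was not called. At P20 it was at 1915.0, 1295.9 and 1597.5 normalized reads in controls and at 2155.6, 2091.4 and 1827.3 in dM1/2, a log2 fold change of 0.35 (SE 0.15, limma adjusted p = 0.239). Without P20 control 1 the value was 0.49 and passed the test (limma adjusted p = 0.0469). At P60 controls were at 2013.0, 2214.1 and 2125.7 and dM1/2 at 1464.3, 2702.9 and 2188.7, a log2 fold change of -0.04 (95% interval -0.56 to 0.47). No member had all dM1/2 libraries below all controls at P20 or P60, where 13.3% and 4.08% of all genes tested did. Of the exon bases of Hdac4, 22.4% lie opposite Gm26720, a long noncoding RNA counted at a mean of 0.199 normalized reads.

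Between genotypes, the summed DP markers were lower in dM1/2 in anagen, as Hdac4 was. In controls the sum and Hdac4 were both higher in every anagen library than in every telogen library. There Hdac4 ran from 2534.9 to 6616.2 normalized reads in anagen and from 1295.9 to 2214.1 in telogen. In dM1/2 the sum was also higher in anagen, while Hdac4 overlapped, at 1221.7 to 2565.7 in anagen and 1464.3 to 2702.9 in telogen. Within each anagen group the libraries stood in the same order for both, which held in no telogen group. In dM1/2 the sum ran from 28164.1 to 46994.0 normalized reads at P20, below its P24 range. The means of Hdac4 in P20 and P24 dM1/2 were 2024.8 and 2329.9. The summed level of the 10 DP markers ran from 303606.9 to 358591.2 normalized reads in P24 controls and from 147786.3 to 183512.6 in P24 dM1/2, and from 152908.8 to 428823.5 in P28 controls against 120850.7 to 132271.9 in P28 dM1/2. Of the 10 markers 6 were lower at P24, where 11.8% of all genes tested were lower. At P28 3 were lower and 1 higher, where 15.6% of all genes were lower and 20% higher. Corin itself, whose gene drives the Cre, ran from 12267.0 to 17134.3 in P24 controls and from 3138.3 to 4754.4 in P24 dM1/2. In bulk RNA fewer cells of a type and less RNA per cell cannot be told apart, and the part of these markers in the Hdac4 result was not tested. The 8 keratinocyte markers summed to between 38.3 and 741.3 normalized reads in all 24 libraries, and the 6 melanocyte markers to between 27.9 and 208.7. The 6 markers of other fibroblasts summed to between 34969.8 and 74861.4 in P24 controls and to between 28816.7 and 39651.0 in P24 dM1/2. At P28 the sum in every dM1/2 library, from 30918.4 to 40822.5, was below that in every control. Of the 6, 2 were lower at P28 and 4 were not called, where 15.6% of all genes tested were lower. Col14a1 ran from 20944.7 to 29456.5 in P28 controls and from 5786.7 to 7451.9 in P28 dM1/2. Dpt, Cd34 and Ly6a overlapped at P28, with Dpt at 1083.1 to 18685.5 in controls and 3947.1 to 5242.9 in dM1/2. The sum of the 4 adipocyte markers separated the genotypes in anagen. It was at 112.7 to 309.1 in controls against 70.3 to 80.3 in dM1/2 at P24, and at 196.6 to 607.2 against 46.3 to 134.9 at P28. Of these markers 2 were tested, and 1 was called lower at each of these ages. The 4 Schwann cell markers summed to between 4496.2 and 8394.9 in P28 controls and to between 2240.0 and 3510.3 in P28 dM1/2, and the sums overlapped at P24. Of the 4, 1 was called lower at P28. The part of these lists in the Hdac4 and Hdac6 results was not tested.

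The genotype effect in anagen minus that in telogen was tested over all 24 libraries. For Hdac4 it was -1.25 (SE 0.27, 95% interval -1.81 to -0.69, limma adjusted p = 0.00159), and for Hdac6 it was 0.87 (SE 0.21, 95% interval 0.44 to 1.30, limma adjusted p = 0.00346). These 2 of the 9 members were called, 1 higher and 1 lower, where 30.2% of all genes tested were called, 16.1% higher and 14.1% lower. Both calls held in every fit without a library and in every other setting, with values from -1.37 to -1.08 for Hdac4 and from 0.79 to 1.02 for Hdac6. Since anagen mice were male and their libraries deeper, stage, sex and depth cannot be told apart in this difference. Between P24 and P28 no member was called for a difference of genotype effects (0 of 9 by limma, 0.707% of all genes, with 0 members at an unadjusted p under 0.05). This does not show that the effects were equal. For Hdac6 the difference ran from 0.18 to 0.64 on the log2 scale in fits without 1 library.

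Hdac10, the other class IIb enzyme, was lower in dM1/2 at P28. It was at 231.4, 195.3 and 214.6 normalized reads in controls and at 162.0, 149.1 and 120.4 in dM1/2, without overlap. The log2 fold change was -0.58 (SE 0.18, limma adjusted p = 0.0428). Without P28 control 3 it was -0.57 with an adjusted p of 0.0625, and without P28 control 1, P28 dM1/2 2 or P28 dM1/2 3 the adjusted p was 0.146, 0.103 or 0.140. With TMM scaling it was 0.0532 by limma and 0.0577 by edgeR, and without a filter on low values 0.0606. At the other ages Hdac10 was not called, with log2 fold changes of 0.13 at P20, -0.31 at P24 and -0.18 at P60.

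Hdac7 in P28 controls was at 1331.0, 1599.8 and 1109.3 normalized reads and in P28 dM1/2 at 1082.3, 1047.3 and 1051.8. The groups did not overlap, but the difference did not pass the test (log2 fold change -0.33, 95% interval -0.69 to 0.03, limma adjusted p = 0.137). Without P28 control 3 the value was -0.46 and passed it (limma adjusted p = 0.0291).

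Hdac3, the catalytic subunit of nuclear receptor corepressor complexes, lay between 664.9 and 989.4 normalized reads in all 24 libraries. Its log2 fold changes lay between -0.07 at P20 and 0.20 at P28, with a widest 95% interval from -0.20 to 0.46 at P60. The other class I member, Hdac8, lay between 67.0 and 180.2 normalized reads, with log2 fold changes from -0.07 to 0.39, and none passed the test. Hdac5 and Hdac11 were not called at any age, with log2 fold changes from -0.47 to 0.11 and from -0.08 to 0.20. Hdac9, a class IIa enzyme known from heart and skeletal muscle, was at 31.7, 22.1 and 40.5 normalized reads in P24 controls and at 26.9, 9.9 and 11.8 in P24 dM1/2, and these groups overlapped. It was measured on few reads, and the 95% interval of its log2 fold change at P60 ran from -2.40 to 0.40.

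**Figure D3:**
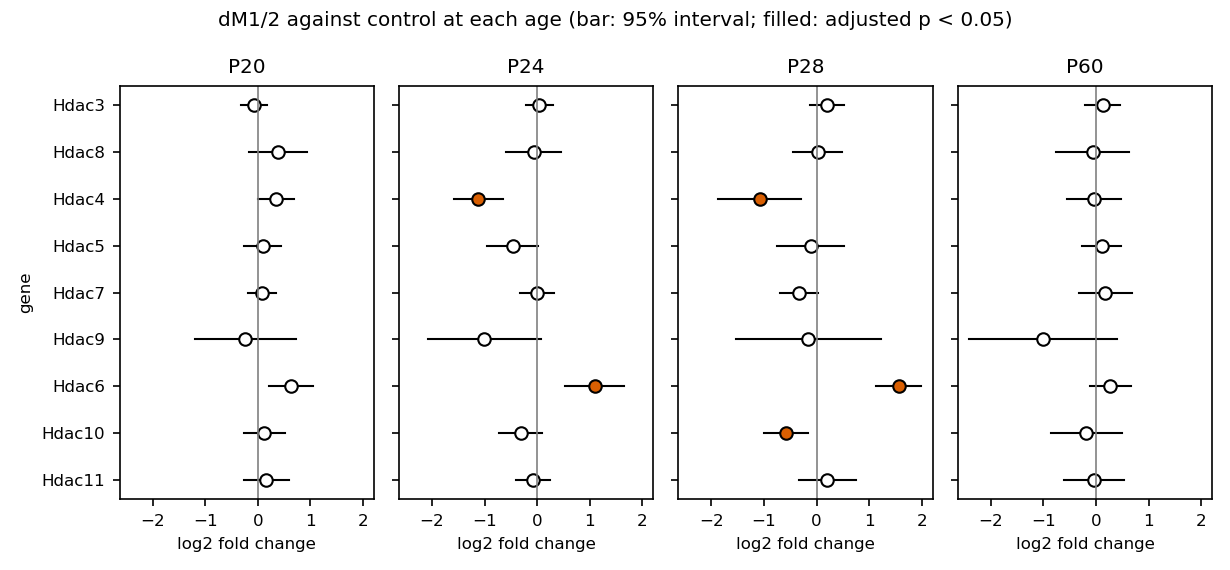
Log2 fold change of dM1/2 against control for each member at the 4 ages; bars are 95% intervals and filled points have a limma adjusted p under 0.05. Hdac6 at 1.09 and 1.56 and Hdac4 at -1.12 and -1.08 are filled at P24 and P28, and Hdac10 at -0.58 is filled at P28.

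Over all members, 0 of 9 were called at P20, where 0.433% of all genes tested were called, with 2 members at an unadjusted p under 0.05. At P24 1 member was higher and 1 lower, where 14.8% of all genes were higher and 11.8% lower. At P28 1 was higher and 2 lower, where 20% of all genes were higher and 15.6% lower. Without P28 control 3 the P28 calls were Hdac6, Hdac4 and Hdac7, where 5788 of 14151 genes were called. At P60 0 of 9 were called, as were 0% of all genes, and edgeR and DESeq2 called 0 members as well, with 0 members at an unadjusted p under 0.05. The median absolute log2 fold change of the members was 0.165 for P20, 0.310 for P24, 0.204 for P28 and 0.130 for P60, beside 0.245, 0.373, 0.482 and 0.182 over all genes tested. The share of members called at P24 and P28, 2 of 9 and 3 of 9, stood near the 26.6% and 35.5% of all genes called.

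**Figure D4:**
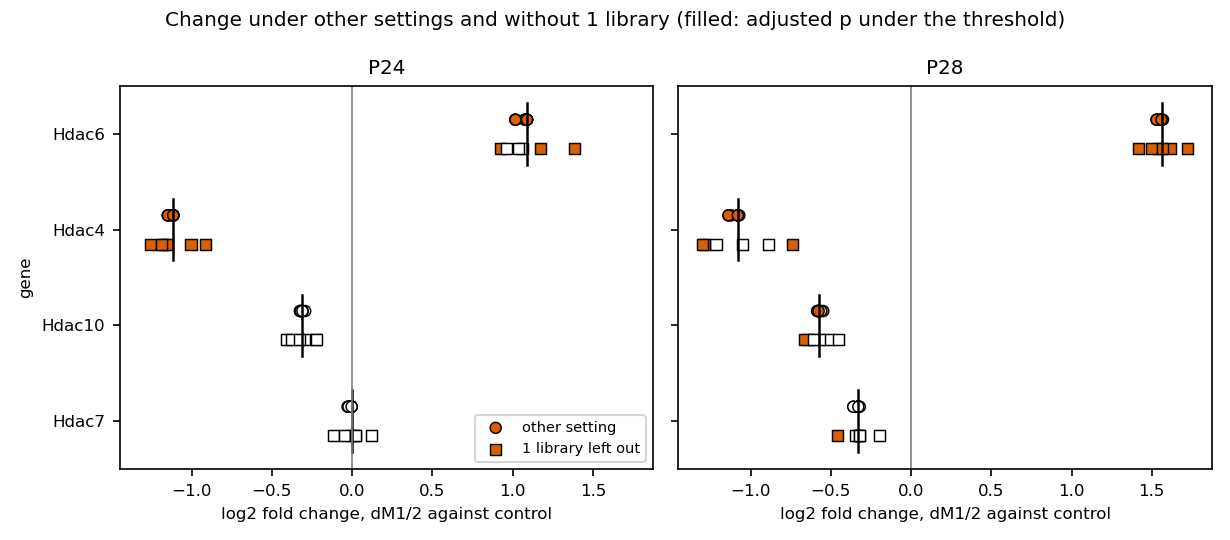
Log2 fold change of Hdac6, Hdac4, Hdac10 and Hdac7 at P24 and P28 under other settings (circles) and with 1 library left out (squares); filled points passed the threshold of that setting, and the vertical line is the value reported. Hdac6 stays above 0 and Hdac4 below 0 in every fit, with calls lost in some, while Hdac10 at P28 stays below 0 with several open points.

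From the first telogen to the second, Hdac7 and Hdac10 rose in controls. Hdac7, an enzyme known from endothelial and T cells, was at 1767.7, 1956.0 and 1523.0 normalized reads in P20 controls and at 3094.0, 2195.0 and 2679.1 in P60 controls, a log2 fold change of 0.60 (SE 0.16, limma adjusted p = 0.0382). Hdac10 was at 179.4, 165.0 and 166.4 in P20 controls and at 411.4, 243.1 and 255.9 in P60 controls, a log2 fold change of 0.79 (SE 0.22, limma adjusted p = 0.0462). The groups did not overlap for either gene, and the share of all genes without overlap between these groups was not counted. These 2 of 9 members were called higher, where 12.6% of all genes tested were called and 6.12% were higher. Both calls were lost without P20 control 3, P60 control 1 or P60 control 3, with adjusted p from 0.0709 to 0.166, and that of Hdac10 also without P20 control 2 or P60 control 2, at 0.107 and 0.0644. Without a filter on low values the call of Hdac10 was lost too (limma adjusted p = 0.0567). Without P20 control 1 Hdac4 was called higher as well. The 6 endothelial markers summed to between 808.9 and 1447.4 normalized reads in P20 controls and to between 1213.1 and 2978.5 in P60 controls. P60 control 1 was the highest control for both this sum and Hdac7, and P60 dM1/2 1, at a sum of 6059.0, was the highest dM1/2 library for both. In that library Tek alone was at 5112.3. Tek was also the 1 marker of 6 called higher in P60 than in P20 controls, whereas Pecam1 and Cdh5, which define endothelial cells, overlapped between P20 and P60 controls, at 67.6 to 111.9 against 92.4 to 138.2 and at 94.7 to 107.1 against 83.0 to 133.5 normalized reads. The part of these markers in the Hdac7 result was not tested.

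In dM1/2 0 of 9 members were called between P20 and P60, where 6.32% of all genes were called, with 1 member at an unadjusted p under 0.05. This was Hdac7, at 1866.8, 1863.4 and 1808.8 normalized reads at P20 and at 3935.8, 2780.9 and 2405.2 at P60, a log2 fold change of 0.69 (95% interval 0.25 to 1.12, limma adjusted p = 0.0712). It was called by DESeq2 (adjusted p = 0.0226), in a single fit over all 24 libraries (limma adjusted p = 0.0106), and without P60 dM1/2 1 or P60 dM1/2 3 (limma adjusted p = 0.0377 and 0.0319). Between P24 and P28 0 members were called in controls, where 1.46% of all genes were called, and 0 in dM1/2, where 2.67% were.

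Over the 4 ages 8 of 9 members varied in controls by limma's F test, where 49% of all genes were called, and Hdac8 was the exception (limma adjusted p = 0.101). Without 1 library 5 to 7 members were called, with 5 without P20 control 2, P28 control 1 or any 1 of the P60 controls. Hdac3 and Hdac11 were called in 2 each of the 12 fits without a library and Hdac6 in 5, whereas Hdac4, Hdac5, Hdac7, Hdac9 and Hdac10 were called in all 12. In dM1/2 5 of 9 varied, where 59.9% of all genes were called. These were Hdac5, Hdac6, Hdac7, Hdac10 and Hdac11. Hdac4 varied in controls (limma adjusted p = 0.00273) and was not called in dM1/2 (limma adjusted p = 0.236).

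Hdac5, a class IIa enzyme like Hdac4, was lower in anagen than in telogen in both genotypes. It lay between 1577.2 and 2748.2 normalized reads in telogen and between 422.7 and 1169.4 in anagen over both genotypes, and the telogen and anagen ranges did not overlap in either genotype. The share of all genes with such separate ranges was not counted, and anagen was not tested against telogen within a genotype. By limma's F test over the ages, 49% of all genes varied in controls and 59.9% in dM1/2. Marker levels differed between the same ages. In controls the summed DP markers ran from 24948.8 to 27275.8 normalized reads at P20 and from 303606.9 to 358591.2 at P24, and those of other fibroblasts from 107562.1 to 183980.6 and from 34969.8 to 74861.4. Their part in the differences between ages was not tested. In controls the mean of Hdac5 was 3.02 times as high at P60 as at P24, and in dM1/2 4.42 times. Hdac7 was lowest in anagen too, at 1117.7 ± 182.2 normalized reads in P24 controls and 2656.0 ± 449.9 in P60 controls. Hdac11, the class IV enzyme, known to remove fatty acyl groups, went the other way, at 456.3 ± 43.9 in P24 controls and 280.7 ± 54.9 in P60 controls. Telogen and anagen ranges overlapped in controls for both genes, and did not in dM1/2. In controls Hdac7 ran from 1523.0 to 3094.0 in telogen and from 948.7 to 1599.8 in anagen. Hdac11 ran from 218.3 to 404.4 and from 324.7 to 564.6.

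Across the 24 libraries, the genes most like each member in Pearson's r of log2(normalized reads + 1) were found among 13402 genes. Age, sex and depth differ between these libraries and change together, and their part in these r values was not tested. Hdac6 was most like Dnmt1, the maintenance DNA methyltransferase (r = 0.963), and Fancm, a DNA repair helicase (r = 0.956). Hdac4 was most like Ssfa2 (r = 0.924) and Tet2, which oxidises methylated cytosine (r = 0.911). Hdac5 was most like Phldb1 (r = 0.971) and Cped1 (r = 0.964), and Hdac7 was most like Iqsec2 (r = 0.970) and Tnfsf13b (r = 0.968). Hdac9 was most like Mylk, the myosin light chain kinase (r = 0.915), and Lmcd1 (r = 0.869). Zdhhc1 was among the genes most like Hdac10 (r = 0.894), and Hdac11 was most like Cacng7 (r = 0.915) and Prkar1b (r = 0.901). The lowest values were those of Hdac3, with Polr2d (r = 0.861) and Ppp1ca (r = 0.860), and of Hdac8, with Tnfrsf18 (r = 0.784) and Zfp768 (r = 0.759).

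Genes that work with these enzymes were grouped by list. None was called at P20 or P60 between genotypes, where 0.433% and 0% of all genes tested were called. Among 5 partners of Hdac3 in its corepressor complexes, Ncor1 fell at P28 by 0.61 on the log2 scale (limma adjusted p = 0.0129) and Tbl1xr1 by 0.61 (limma adjusted p = 0.00929). At P28 15.6% of all genes tested were lower.

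Of 4 MEF2 factors, 3 were tested. Mef2a and Mef2c were lower at P24, where 11.8% of all genes tested were lower. Mef2a was lower at P28 (log2 fold change -0.77, limma adjusted p = 0.0111), where 15.6% were. Of 14 kinases that send class IIa enzymes out of the nucleus, 4 were higher and 2 lower at P24, where 14.8% of all genes tested were higher and 11.8% lower, and 2 were higher and 2 lower at P28, where 20% were higher and 15.6% lower. Camk1g ran from 17.3 to 42.9 normalized reads in P28 controls and from 118.5 to 154.7 in P28 dM1/2, a log2 fold change of 2.30 (limma adjusted p = 0.0033), and Camk4 rose by 0.82 on the log2 scale. Sik3 fell by 0.78 and Prkd3 by 0.67. Of 7 14-3-3 proteins, which hold these enzymes in the cytoplasm, 1, Ywhah, was higher at P28 (log2 fold change 0.60, limma adjusted p = 0.0241). There 20% of all genes tested were higher. At P24 0 were called, where 26.6% of all genes were called.

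The Hdac6 pathway covers tubulin acetylation and the handling of misfolded protein. Of its genes Atat1, the acetyltransferase that acts on the same tubulin lysine, ran from 85.2 to 144.5 normalized reads in P28 controls and from 193.1 to 266.1 in P28 dM1/2, a log2 fold change of 0.88 (limma adjusted p = 0.0341). At P28 20% of all genes tested were higher.

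Of 7 sirtuins, the deacetylases that use NAD rather than zinc, 3 were lower and 0 higher at P24, where 11.8% of all genes tested were lower and 14.8% higher. At P28 2 were lower and 1 higher, where 15.6% were lower and 20% higher. Sirt5, a mitochondrial enzyme, ran from 73.7 to 122.9 normalized reads in P28 controls and from 23.9 to 29.1 in P28 dM1/2, a log2 fold change of -1.78 (limma adjusted p = 0.00345). Sirt3 fell by 0.64 at P28 on the log2 scale, and Sirt7 rose by 0.69.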

How the data were processed

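RNA-seq libraries of sorted DP cells were grouped by age and genotype from the sample labels. Per the study's methods and the submitters' processing notes, 50-base single reads passed through Trimmomatic, TopHat2 (mm10) and HTSeq (Ensembl, GRCm38.p4). The signal deposited by the authors is each gene's read count over its library's DESeq2 size factor. The strand setting of the counting and the DESeq2 version are not given in the sources used here. The deposited columns of fold changes and p-values were not used. Dividing each library by its smallest step gave whole reads for 100% of values (tolerance 0.01). The 9 members and the gene lists were chosen with earlier results of these data known. All members are named; of each related list up to 3 rises and 3 falls at P28, or else P24, are named, except some genes that are not reported here. The main test was limma 3.58.1 (trend, two-sided) on log2(normalized reads + 1), in 12 comparisons, keeping genes whose mean in the fitted libraries reached 10 normalized reads. edgeR 4.0.16 and DESeq2 1.42.0 on the recovered reads, other pseudocounts, filters and thresholds, and leaving out each library were alternatives. Exact permutation tests were two-sided. Scripts were tested on simulated data. Levels per kb used exon lengths of GENCODE M21 on GRCm38. Libraries of a group are biological replicates per the labels, and their pairs differed by more than counting error (chi-square per gene at least 10.4).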

Additional observations from a re-analysis of the deposited data

Results flagged for a closer look

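The genotype effect differed between anagen and telogen for 2 members, tested as a difference of effects over 24 libraries. For Hdac4 the effect in anagen minus that in telogen was -1.25 on the log2 scale (SE 0.27, limma adjusted p = 0.00159), and for Hdac6 it was 0.87 (SE 0.21, limma adjusted p = 0.00346). Stage, sex and depth cannot be told apart in either value.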

How the results depend on the processing

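Fits over 6 libraries leave few degrees of freedom, and Hdac9 rests on as few as 4 reads in a library. The number of members called at an adjusted p under 0.01 was 1 at P24 (Hdac4), 1 at P28 (Hdac6), 0 between P60 and P20 in controls and 3 over the ages in controls. At P28 TMM scaling left 1, Hdac6, by limma and 1 by edgeR. Between P60 and P20, no filter left 1 in controls (Hdac7), and in dM1/2 DESeq2 and the single fit over 24 libraries gave 1 each, Hdac7. The cause of these changes was not tested.

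Without 1 library the number called ran from 0 to 1 at P20, from 1 to 2 at P24 and from 1 to 3 at P28, from 0 to 3 between P60 and P20 in controls and from 0 to 1 in dM1/2, and from 5 to 7 over the ages in controls. Some uncalled changes turned sign without a library. At P20 log2 fold changes ran from -0.052 to 0.26 for Hdac5, from -0.010 to 0.17 for Hdac7 and from -0.55 to 0.14 for Hdac9. At P24 they ran from -0.018 to 0.077 for Hdac3, from -0.12 to 0.12 for Hdac7, from -0.29 to 0.11 for Hdac8 and from -0.16 to 0.0065 for Hdac11. At P28 they ran from -0.41 to 0.11 for Hdac5, from -0.091 to 0.13 for Hdac8, from -0.65 to 0.19 for Hdac9 and from -0.051 to 0.35 for Hdac11. At P60 they ran from -0.24 to 0.20 for Hdac4, from -0.024 to 0.33 for Hdac7, from -0.29 to 0.14 for Hdac8, from -0.35 to 0.064 for Hdac10 and from -0.23 to 0.081 for Hdac11.

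Replicate numbers are shared between groups, but no set of same-numbered libraries correlated over 0.1 in every pair. Deviations from the group means correlated at 0.08 to 0.23 at P20, where every library correlated best with its own number. At P24 they correlated at -0.40 to 0.04. The numbers were therefore not taken to pair the libraries, although a pairing at P20 remains possible. With the replicate block 0 members were called between P60 and P20 in controls, 2 at P28 (Hdac4 and Hdac6), and 6 over the ages in controls. The block left 2 called at P24 and 2 for the difference of anagen and telogen effects.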
